A study of Mus musculus with 2 samples.

Results

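Ciliated airway cells are the epithelial cells that carry beating cilia on the surface of the conducting airways. They were chosen here from measured values, as barcodes with at least 2000 UMIs (unique molecular identifiers, each standing for 1 captured transcript), at least 500 genes and at most 20% mitochondrial UMIs. A member also had at least 1 UMI of at least 4 of 7 genes (Fam183b, 1110017D15Rik, Tmem212, Ccdc153, AU040972, 1700016K19Rik and Cfap126), and Sftpc, the surfactant protein C gene, under 10% of its UMIs. This gave 518 cells of 19152. There were 231 of 8165 cells in the tumor-bearing library and 287 of 10987 in the control library.

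The tumor-bearing library came from the lung of a wild type C57BL/6 mouse 14 days after an injection of 1000000 luciferase-labelled LLC cells (Lewis lung carcinoma, a transplantable mouse lung cancer line) under the skin of the back. The control library came from an untreated wild type C57BL/6 mouse, and the labels name no transgene in either mouse. The tumor grew at a distant site from an injected cell line, and the labels call this a model of spontaneous lung metastasis. In both libraries, lungs were digested with enzymes and cells without CD45 and with SftpC were sorted, with a purity above 95% given by the submitters, then read with 10x droplet RNA sequencing. Ciliated cells do not make surfactant protein C, so all 518 cells lay outside the cells that the sort was meant to keep. Each group had 1 library, so no difference below has a replicate check or a test. A difference between libraries cannot be told apart from one between mice, or between the sorts.

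A motile cilium is a hair-like extension built on a basal body, with a ring of microtubule doublets around a central pair, the axoneme. Dynein motor proteins in outer and inner arms bend the axoneme, while radial spokes and nexin links set the beat. Material moves in and out on intraflagellar transport (IFT) trains. FOXJ1 is the transcription factor that drives the motile cilium programme, and proteins of the regulatory factor X (RFX) family bind X-box motifs near many ciliary genes. In the airway these cells move mucus out of the lung.

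The libraries held 84448360 UMIs (tumor-bearing) and 91498124 UMIs (control). Ciliated cells held 1402587 summed UMIs (tumor-bearing) and 1322723 (control). Their median was 5190 UMIs and 2258 genes in the tumor-bearing library, against 4395 UMIs and 1968 genes in the control library. After every ciliated cell was thinned to 2000 UMIs, the medians were 1136 genes (tumor-bearing) and 1114 genes (control). The median mitochondrial share was 3.8% (tumor-bearing) and 4.07% (control). No barcode was a ciliated cell in both libraries. Among all cells 128 barcodes were shared, and 4 ciliated barcodes (tumor-bearing) and 5 (control) were also a cell of any kind in the other library.

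The share of ciliated cells was close in the libraries. It was 2.83% of cells in the tumor-bearing library (exact 95% Clopper-Pearson interval 2.48 to 3.21) and 2.61% in the control library (2.32 to 2.93), a ratio of 1.08. All intervals here cover counting error only. Of the cells with Sftpc under 10% of UMIs, ciliated cells were 17.4% of 1325 in the tumor-bearing library (15.4 to 19.6) and 34.9% of 822 in the control library (31.7 to 38.3). The sort was aimed at other cells, so these shares describe what passed it and not the airway. With a minimum of 4000 UMIs per cell the shares stood further apart, at 2.42% (tumor-bearing) and 1.72% (control).

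The number of rule genes separated the members from the rest with few cells between. Among cells with Sftpc under 10%, 0 cells of the tumor-bearing library and 1 cell of the control library held exactly 3 rule genes, just outside the limit. Just inside it, 7 tumor-bearing cells and 0 control cells held exactly 4. All 7 rule genes were found in 162 tumor-bearing cells and 167 control cells. The Sftpc limit cut through more cells. Just inside it, with Sftpc between 5% and 10% of UMIs, lay 3 tumor-bearing cells and 16 control cells. Just outside it, with 10% to 20%, lay 28 cells of the tumor-bearing library with a median of 13405 UMIs and 53 of the control library with a median of 10236 UMIs.

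**Figure D1:**
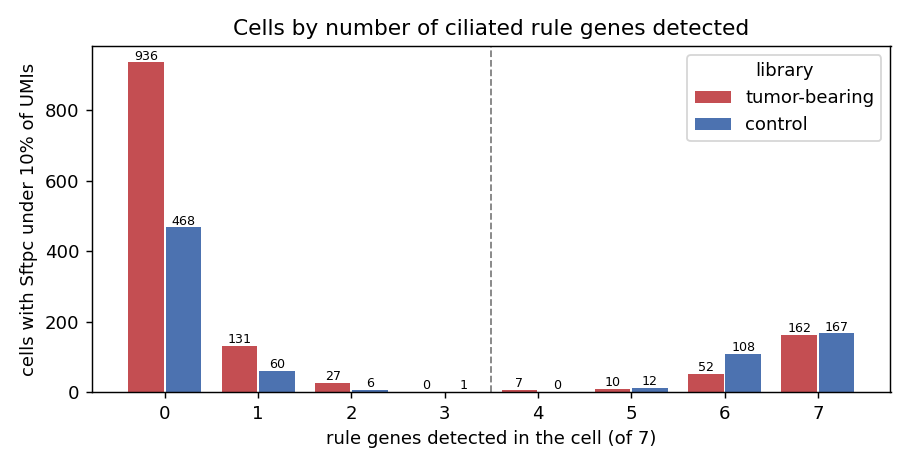
Number of cells with Sftpc under 10% of UMIs (vertical axis) by how many of the 7 rule genes had at least 1 UMI (horizontal axis), with the tumor-bearing library in red, the control library in blue and the limit as a dashed line. Most cells held 0 or 1 rule genes or at least 6, and 1 cell in all held exactly 3.

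The 7 genes that chose the cells were abundant in both libraries, which is a description and supports nothing. Levels are given as CPM, the counts of a gene per 1000000 summed UMIs of the ciliated cells. Fam183b stood at 2006 CPM in the tumor-bearing library (95% Poisson interval 1932 to 2081) and 2212 CPM in the control library (2133 to 2294). Tmem212 stood at 1742 CPM (tumor-bearing) and 1714 CPM (control), and Ccdc153 at 1354 CPM (tumor-bearing) and 1669 CPM (control). Cfap126, which encodes a cilia and flagella associated protein, stood at 1115 CPM (tumor-bearing) and 1295 CPM (control). In cells thinned to 2000 UMIs, Fam183b was found in 96.1% (tumor-bearing) and 98.3% (control) of ciliated cells. AT2 cells (alveolar type 2 cells) were taken as those with Sftpc at or above 10% of UMIs and under 4 rule genes, and had medians of 8972 UMIs (tumor-bearing) and 6947 UMIs (control). After thinning, Fam183b was found in 0.7% (tumor-bearing) and 0.9% (control) of them.

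AU040972 was the rule gene that differed most between libraries. It is annotated as an antisense gene on chromosome 11, positions 79481719 to 79484031 (mm10, minus strand), and the sources used here do not give whether counting used strand. It stood at 1397 CPM (tumor-bearing) and 839 CPM (control), a ratio of 1.67 (95% interval 1.55 to 1.79). It was found in 75.3% (tumor-bearing) and 62.7% (control) of ciliated cells, and after thinning in 60.2% (tumor-bearing) and 53.7% (control). In AT2 cells it stood at 0.942 CPM (tumor-bearing) and 1.09 CPM (control). The other 6 rule genes had ratios between 0.81 (Ccdc153) and 1.02 (Tmem212).

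The label was checked against other ciliated markers, and against markers of the other cell types the sort could hold. Of 10 textbook ciliated markers, 9 matched a symbol in the files and all 9 were detected. Their summed level was 8378 CPM (tumor-bearing) and 9563 CPM (control), against 287 CPM (tumor-bearing) and 354 CPM (control) in AT2 cells. Foxj1 stood at 384 CPM (tumor-bearing) and 397 CPM (control). After thinning it was found in 51.5% (tumor-bearing) and 52.6% (control) of ciliated cells, against 0.3% (tumor-bearing) and 0.2% (control) of AT2 cells. Markers of basal, goblet and neuroendocrine cells and of leukocytes were low but not all at 0. Of 6 basal markers 3 were detected, with a summed level of 4.28 CPM (tumor-bearing) and 5.29 CPM (control), and Trp63 had 0 UMIs in both libraries. Of 6 goblet markers 4 were detected, at 23.5 CPM (tumor-bearing) and 5.29 CPM (control), with Agr2 at 21 UMIs (tumor-bearing) and 5 UMIs (control) and Muc5b and Muc5ac at 0 in both. Of 8 leukocyte markers 5 were detected, at 35.6 CPM (tumor-bearing) and 5.29 CPM (control). Among these, S100a8 and S100a9 had 27 and 23 UMIs in tumor-bearing cells and 0 in control cells, and Ptprc had 0 in both. In barcodes with 1 to 100 UMIs, the empty droplets described below, S100a8 stood at 487 CPM (tumor-bearing) and 0.862 CPM (control). S100a9 stood at 350 CPM (tumor-bearing) and 0 CPM (control) in them. All 7 neuroendocrine markers were detected, at 57.0 CPM (tumor-bearing) and 15.1 CPM (control), and Uchl1 had 9 UMIs (tumor-bearing) and 17 UMIs (control). Red cell markers summed to 27.1 CPM (tumor-bearing) and 380 CPM (control). A single control cell held 214 of 281 Hbb-bs UMIs, 78 of 101 of Hba-a1 and 54 of 78 of Hba-a2. Without that cell Hbb-bs stood at 50.8 CPM in the control library, against 18.5 CPM in the tumor-bearing library. Alveolar type 1 markers were higher, at 1816 CPM (tumor-bearing) and 2128 CPM (control), of which Hopx held 1452 CPM (tumor-bearing) and 1410 CPM (control). Club markers summed to 83680 CPM (tumor-bearing) and 25789 CPM (control), and are described below with AT2 and endothelial markers.

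AT2 genes were detected in ciliated cells, at levels below those in empty droplets. Sftpc also chose the cells through its limit of 10% of UMIs, so its low level is a description, and those of the AT2 genes that go with it are affected by the same choice. Empty droplets (barcodes with 1 to 100 UMIs) show the free RNA of each library. Sftpc stood at 12408 CPM in ciliated cells (tumor-bearing) and 20999 CPM (control), which was 6.62% (tumor-bearing) and 9.03% (control) of its level in empty droplets. Lyz2 (lysozyme) stood at 7.95% of its empty droplet level (tumor-bearing) and 10.3% (control). Sftpa1, another surfactant protein gene, stood at 8.76% (tumor-bearing) and 9.66% (control). The 10 AT2 markers other than Sftpc lay between 5.76% and 33.6% of their empty droplet levels (tumor-bearing) and between 9.19% and 29.0% (control), with Abca3, a lipid transporter, the highest in both.

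**Figure D2:**
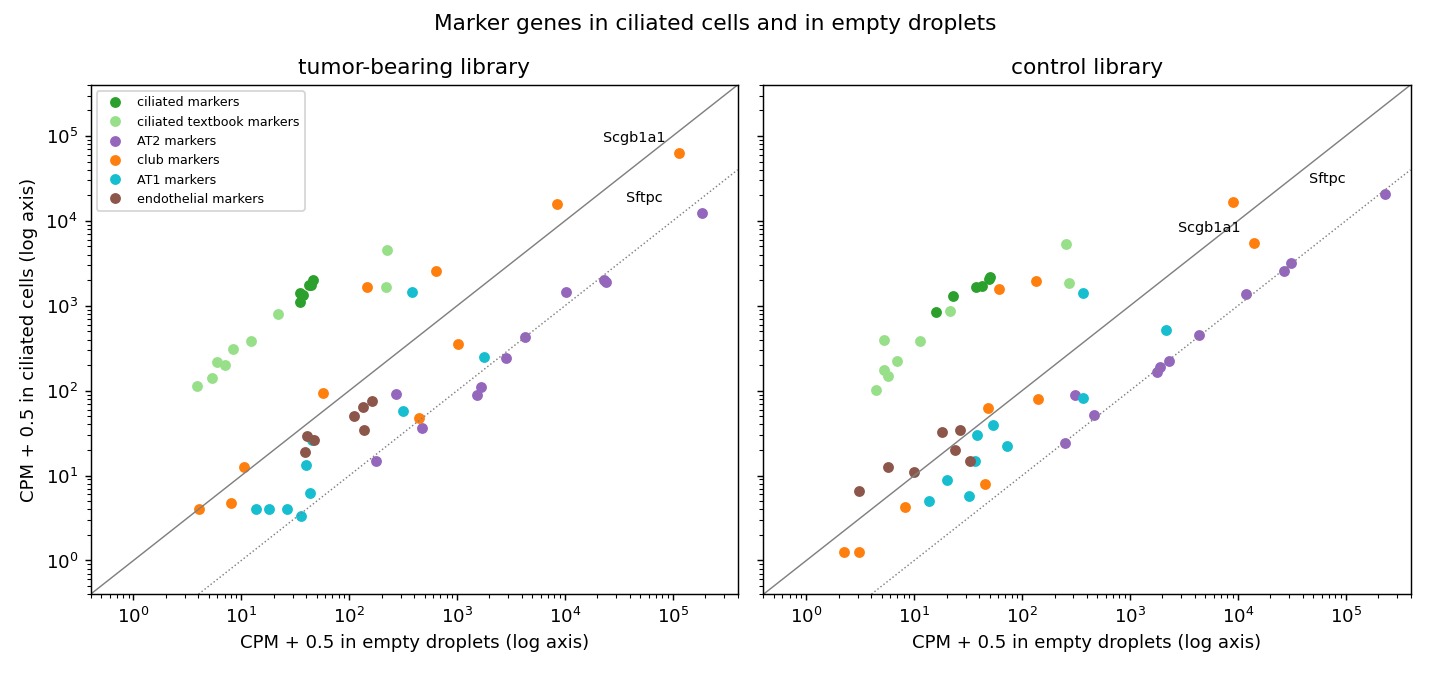
CPM + 0.5 of each marker gene in ciliated cells (vertical log axis) against empty droplets of the same library (horizontal log axis), tumor-bearing left and control right, with equal levels as a solid line and 10% of the empty droplet level as a dotted line. Ciliated markers lie far above the solid line, most AT2 markers lie near the dotted line, with Abca3 above it, and Scgb1a1 stands at 55.2% (tumor-bearing) and 38.9% (control) of its empty droplet level.

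Apart from the rule genes, the genes that stood highest in ciliated cells over all other cells were largely ciliary. The 15 leading genes were Sntn, Gm867, Mlf1, Meig1, Rsph1, 1700007K13Rik, BC051019, Riiad1, 3300002A11Rik, Tctex1d4, Dnah12, Efcab10, 1700001C02Rik, Ccdc113 and Pifo. Rsph1 encodes a radial spoke head protein. It stood at 798 CPM (tumor-bearing) and 879 CPM (control). Sntn encodes sentan, a protein of the tip of motile cilia, and stood at 483 CPM (tumor-bearing) and 546 CPM (control). Dnah12, an inner arm dynein heavy chain, stood at 364 CPM (tumor-bearing) and 330 CPM (control). Between libraries, 14 of the 15 had log2 ratios between -0.25 and 0.14. All log2 ratios here are tumor-bearing over control with 1 CPM added to both. The exception was 1700007K13Rik, at 573 CPM (tumor-bearing) and 862 CPM (control), a log2 ratio of -0.59.

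Promoters of 5 genes are shown because they carry the core of the X-box, GTTGCCA on either strand, upstream of a gene that leads or chose the ciliated cells. Sequences are from RefSeq, build GRCm38.p6, 5′ to 3′ on the strand of the gene, and capitals mark the motif. The window of Sntn is chr14:13670726-13670875 (plus strand), with the motif at -66 to -60 from the start of the gene. That of Mlf1 is chr3:67373947-67374096 (plus strand), with the motif at -105 to -99. That of BC051019 is chr7:109723772-109723921 (minus strand), with 2 motifs, the nearer to the 5′ end at -136 to -130. That of Pifo is chr3:106001498-106001647 (minus strand), with the motif at -13 to -7. Pifo also has another annotated start, whose window did not hold the motif. The windows shown for these 4 genes run over the 150 bases before the start used. That of AU040972 is chr11:79484132-79484281 (minus strand), runs from -250 to -101, and has the motif at -211 to -205.
Sntn: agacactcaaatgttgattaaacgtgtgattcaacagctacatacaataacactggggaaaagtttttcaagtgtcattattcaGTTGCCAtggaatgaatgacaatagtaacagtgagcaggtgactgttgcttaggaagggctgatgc
Mlf1: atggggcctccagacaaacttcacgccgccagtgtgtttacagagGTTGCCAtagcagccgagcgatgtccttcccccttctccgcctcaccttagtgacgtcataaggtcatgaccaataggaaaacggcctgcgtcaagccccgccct
BC051019: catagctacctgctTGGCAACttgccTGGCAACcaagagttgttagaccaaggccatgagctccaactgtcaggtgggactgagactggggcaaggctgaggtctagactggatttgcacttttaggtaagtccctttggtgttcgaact
Pifo: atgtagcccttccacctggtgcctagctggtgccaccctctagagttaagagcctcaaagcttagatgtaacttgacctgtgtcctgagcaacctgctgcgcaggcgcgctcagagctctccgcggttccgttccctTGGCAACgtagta
AU040972: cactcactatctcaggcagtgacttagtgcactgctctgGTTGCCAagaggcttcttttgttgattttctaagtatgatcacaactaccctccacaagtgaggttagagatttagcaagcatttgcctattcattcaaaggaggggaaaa

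A larger share of the genes with high levels in ciliated cells held the motif than of all genes with a promoter window. Windows from 250 bases before to 50 bases after the start were searched for GTTGCCA on both strands. It was held by 1 of 6 rule genes with a window (AU040972) and by 5 of 12 leading genes (41.7%), namely Sntn, Mlf1, BC051019, Pifo and Efcab10. Of all 27025 genes with a window, 1358 held it (5.02%). A gene with several windows was counted if any of them held the motif. Rule and leading genes with no window were 1700016K19Rik, Riiad1, Rsph1 and 1700001C02Rik. The longer X-box, GTTNCC and GGNAAC separated by any 2 bases, overlaps the core motif. It was found in 143 of all genes with a window (0.529%). Pifo was the only leading gene with a window that held it. A match says that these letters are in the window, and is neither a bound site nor a cause.

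Many other genes also stood far higher in ciliated cells than in the other epithelial classes. Of 5313 genes with at least 20 CPM in ciliated cells of both libraries, 419 (7.89%) stood at least 10-fold above AT2 cells, AT1 cells (alveolar type 1 cells, at least 4 of 8 AT1 genes) and club cells (secretory airway cells, at least 4 of 8 club genes) in both libraries. The cells were chosen by genes of the same programme, so this count is a description. Of the 419, 128 were on the gene lists used here, and 399 were annotated as protein coding, 13 as antisense and 6 as lincRNA. GTTGCCA was held by 62 of the 314 of them with a window (19.7%), against 199 of 3786 for the other genes with at least 20 CPM (5.26%). It was held by 18 of 79 genes with a window on the axoneme lists (22.8%) and by 14 of 57 on the transport and basal body lists (24.6%).

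These 419 genes differed little between the libraries. Their summed level was 77395 CPM (tumor-bearing) and 85758 CPM (control), and their median log2 ratio was -0.07. The median over all 3185 genes with at least 50 CPM was -0.06, with 95% of genes between -0.79 and 0.54. A gene was counted as past the size rule when it reached 50 CPM in 1 of the libraries, differed at least 2-fold, and had Poisson intervals that did not overlap. In all, 14 of 3185 genes (0.44%) were higher and 52 (1.63%) were lower in the tumor-bearing library. Of the 419 genes, 327 could be counted, and 0 were higher and 2 lower, namely Mt1 and Mt2. Among the next in size were Glipr1, at 133 CPM (tumor-bearing) and 225 CPM (control), and Pcp4l1, at 321 CPM (tumor-bearing) and 516 CPM (control). In the other direction, Ttll3, a tubulin glycylase, stood at 140 CPM (tumor-bearing) and 86.2 CPM (control).

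The motor proteins of the axoneme were at similar levels in both libraries. List medians are taken over members that reached 20 CPM in 1 of the libraries, and the median over all 6176 such genes was -0.05. For the outer arm the median of 7 members was 0.08. Dnah5, an outer arm heavy chain whose loss stops ciliary beating, stood at 199 CPM (tumor-bearing) and 175 CPM (control). Dnah9, the other main outer arm heavy chain of the airway, stood at 140 CPM (tumor-bearing) and 147 CPM (control). For the inner arm the median of 12 members was 0.01, and Dnali1, a light intermediate chain, stood at 314 CPM (tumor-bearing) and 307 CPM (control). The 5 docking proteins had a median of 0.02, and the 10 factors that assemble dynein arms in the cytoplasm had one of -0.11. No member of these 4 lists was past the size rule.

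The same held for the parts that hold the axoneme together and set its beat. The 12 radial spoke members had a median of -0.03, with Rsph9 at 436 CPM (tumor-bearing) and 426 CPM (control). The 14 members of the nexin links and the rulers that space the arms had a median of -0.07. Of these, Ccdc39, a ruler protein, stood at 189 CPM (tumor-bearing) and 134 CPM (control). The 13 central pair members had a median of 0.16, with Spag17 at 332 CPM (tumor-bearing) and 274 CPM (control) and Spef2 at 226 CPM (tumor-bearing) and 186 CPM (control). The 19 proteins inside the doublet microtubules had a median of -0.03. Tekt1, a tektin filament protein, stood at 309 CPM (tumor-bearing) and 386 CPM (control). No member of these 4 lists was past the size rule.

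Among tubulins and the enzymes that modify them, the median of 13 members was -0.18 and 1 member was past the size rule. Tuba1c, an alpha tubulin, stood at 27.8 CPM (tumor-bearing) and 57.5 CPM (control). The abundant members were closer to equal. Tppp3, which promotes microtubule bundling, stood at 4572 CPM (tumor-bearing) and 5387 CPM (control). Tubb4b, a beta tubulin used in cilia, stood at 1648 CPM (tumor-bearing) and 1870 CPM (control). Near-identical tubulin genes can share reads, so single tubulin values are uncertain.

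Transport and basal body genes also kept close levels. The median was -0.02 for 16 IFT-B members and 0.03 for 15 IFT-A members and motors. Ift20, an IFT-B subunit, stood at 483 CPM (tumor-bearing) and 498 CPM (control). Dync2h1, the heavy chain of the motor for the return journey, stood at 147 CPM (tumor-bearing) and 129 CPM (control). The 9 members for the BBSome, a coat that moves membrane proteins, had a median of -0.08, and the 16 of the transition zone and basal body had one of 0.07. Cep290, a transition zone protein, stood at 219 CPM (tumor-bearing) and 181 CPM (control). No member of these lists was past the size rule, nor was any of the adenylate kinase and calcium binding list (13 members, median -0.13) or the apical surface list (12 members, median -0.04).

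Several of these genes have close paralogues, given here beside them. The counts carry no correction for gene length, so levels are compared between libraries and not between genes. Dynlrb2, a dynein light chain, stood at 2088 CPM (tumor-bearing) and 2227 CPM (control), and its paralogue Dynlrb1 at 263 CPM (tumor-bearing) and 299 CPM (control). Spag6l, a central pair gene, stood at 242 CPM (tumor-bearing) and 247 CPM (control), while its near copy Spag6 had 0 UMIs in both. Tubb4a also had 0 UMIs in both. Genes that share reads with a near-identical copy are uncertain where counting could split or drop them.

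The transcription factors of the programme had a median of -0.05 over 10 members. Foxj1 is given above. Myb, which acts early in multiciliated cells, stood at 110 CPM in the tumor-bearing library (95% interval 93.1 to 129) and 93.7 CPM in the control library (78.0 to 112). Trp73, a regulator of the multiciliated fate, stood at 28.5 CPM (tumor-bearing) and 40.1 CPM (control). Rfx3 and Rfx2, which bind X-boxes, stood at 32.8 and 27.8 CPM in tumor-bearing cells and at 34.0 and 42.3 CPM in control cells. Sox2, an airway epithelial factor, stood at 130 CPM (tumor-bearing) and 92.2 CPM (control). The intervals of the libraries overlapped for Myb.

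Genes that multiply centrioles stood out for a single cell. Only 4 members had at least 20 CPM, with a median of 0.87, and Ccno, a cyclin-like gene needed for centriole amplification, stood at 43.5 CPM (tumor-bearing) and 14.4 CPM (control). A single tumor-bearing cell held 33 of the 61 Ccno UMIs of that library, against 19 in all control cells. Without that cell Ccno stood at 20.3 CPM in the tumor-bearing library, and over the alternatives tried its log2 ratio lay between -1.08 and 1.69, so its direction was not fixed. The same cell held 8 of 12 UMIs of Mcidas, a master regulator of multiciliation with 0 UMIs in the control library. It also held 17 of 62 UMIs of Ccdc67, a gene of the deuterosome that makes centrioles. The cell held 23231 UMIs, 4587 genes, 4 of the rule genes and 4006 UMIs of the club cell gene Scgb1a1, and it was among the highest doublet scores of its library. The part of a mixed droplet in its values was not tested.

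The summed level of axoneme genes had a similar spread over cells in both libraries. In cells thinned to 2000 UMIs, the 92 genes of the axoneme lists summed to a median of 30 UMIs in the tumor-bearing library (10th to 90th percentile 20 to 39) and 27 UMIs in the control library (19 to 36). The full range was 0 to 46 UMIs (tumor-bearing) and 6 to 48 UMIs (control). The gene that varied most between thinned ciliated cells, by variance over mean, was Scgb1a1, at 385. Next came Malat1, a nuclear long noncoding RNA, at 31.0, then Sftpc at 17.9, S100a6 at 10.6, Fos at 9.79 and Ifitm1 at 9.17. The median over 2744 genes was 1.03, and 85 genes reached 2. AU040972 had 6.96, with up to 48 UMIs in a tumor-bearing cell and up to 22 in a control cell.

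**Figure D3:**
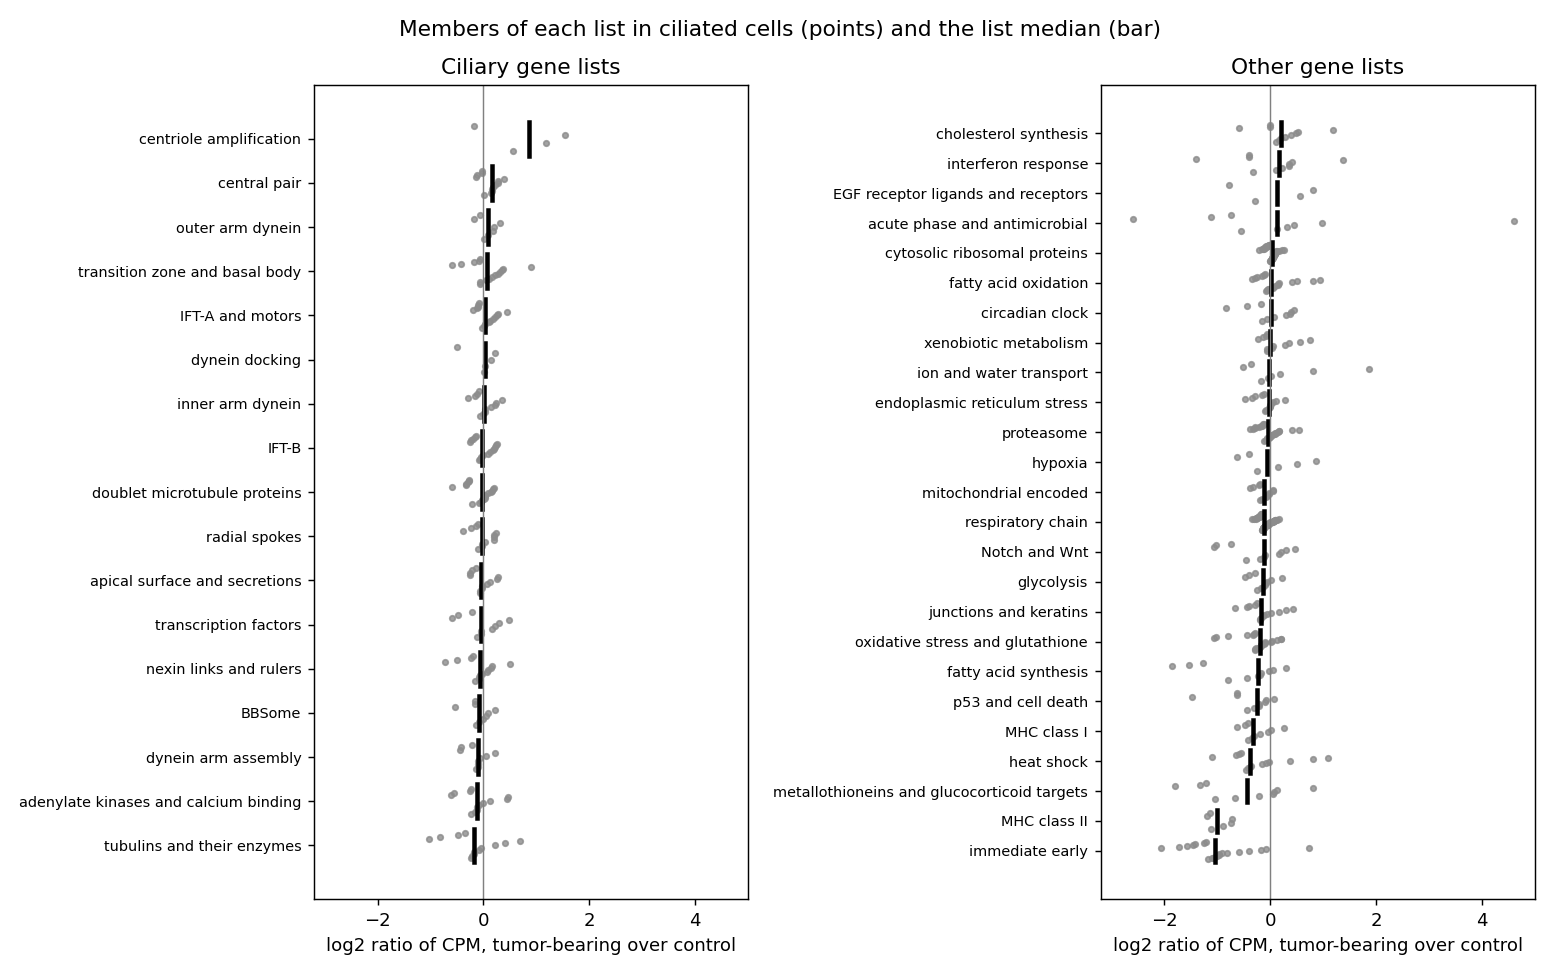
Log2 ratio of CPM in ciliated cells, tumor-bearing over control (horizontal axis), for each member that reached 20 CPM (points) and the list median (bar), with ciliary lists left and other lists right. Ciliary list medians lie between -0.18 and 0.16 except centriole amplification at 0.87, while the immediate early and MHC class II lists lie at -1.03 and -1.0.

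Among the ciliary and response lists with a median, the largest difference between the libraries was in immediate early genes, which cells switch on within minutes of a stimulus or of handling and dissociation. Of 21 members with at least 20 CPM, 20 were below 0, against 57.5% of all 6176 genes, and 12 were past the size rule as lower in the tumor-bearing library. The list median was -1.03, and it stayed between -1.19 and -0.71 under the alternatives tried. In AT2 cells of the same libraries the median was 0.23.

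Atf3, a stress-induced transcription factor on chromosome 1 (191170296 to 191218039, mm10), stood at 347 CPM in the tumor-bearing library (95% interval 316 to 379) and 1032 CPM in the control library (978 to 1088), a ratio of 0.34. Egr2, a zinc finger factor, stood at 41.4 CPM (tumor-bearing) and 177 CPM (control). Socs3, an inhibitor of cytokine signalling, stood at 99.8 CPM (tumor-bearing) and 333 CPM (control). The intervals of the libraries were separate for all 3. Fos and Junb, subunits of the AP-1 factor, stood at 1487 and 991 CPM in tumor-bearing cells and at 2998 and 2350 CPM in control cells. Nr4a1, an orphan nuclear receptor, stood at 154 CPM (tumor-bearing) and 426 CPM (control). Klf4 was the member above 0, at 28.5 CPM (tumor-bearing) and 16.6 CPM (control). Arc, an activity-induced gene outside the list, had the same direction, at 23.5 CPM (tumor-bearing) and 108 CPM (control).

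**Figure D4:**
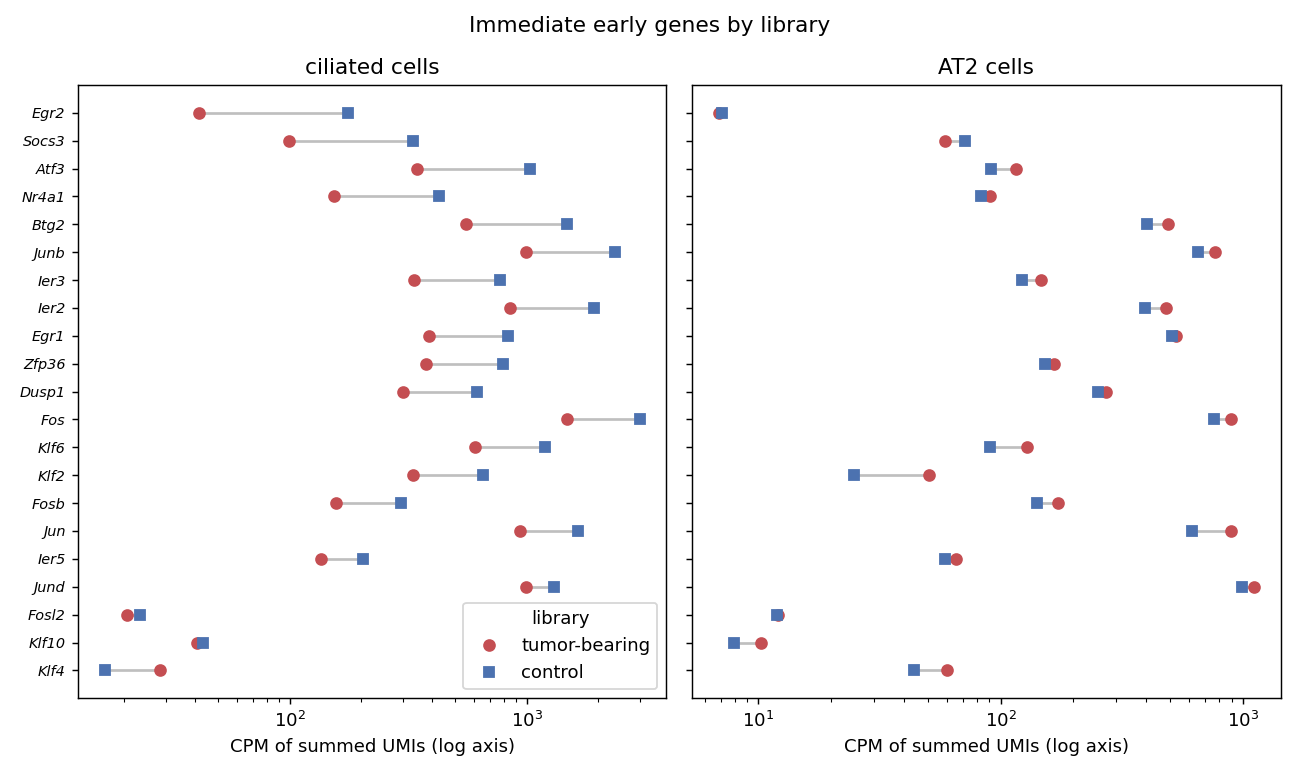
CPM of each immediate early gene (log axis, with its own range in each panel) in ciliated cells (left panel) and AT2 cells (right panel), with tumor-bearing as red circles and control as blue squares. In ciliated cells 20 of 21 genes lie lower in the tumor-bearing library, while in AT2 cells the median log2 ratio is 0.23.

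Both the typical cell and the share of cells with very high levels were lower in the tumor-bearing library. In thinned ciliated cells the list summed to a median of 5 UMIs (tumor-bearing) and 9 UMIs (control). At least 50 UMIs were found in 24 of 231 tumor-bearing cells (10.4%, Clopper-Pearson 6.77 to 15.1) and in 89 of 287 control cells (31.0%, 25.7 to 36.7). Between 0 and 9 UMIs were found in 66.7% of tumor-bearing cells and 50.2% of control cells. Of 1000 thinned AT2 cells of each library, 1 tumor-bearing cell (0.1%) and 1 control cell (0.1%) reached 50. Thinned club cells had the same direction as ciliated cells, with medians of 4 UMIs (tumor-bearing) and 7 UMIs (control). In them 1 of 216 tumor-bearing cells and 1 of 56 control cells reached 50. Scgb1a1, a club cell gene, took 586617 CPM (tumor-bearing) and 500918 CPM (control) of club cells. The part of that unlike share in the club medians was not tested. Thinned AT1 cells had the other direction, with medians of 15 UMIs (tumor-bearing) and 11 UMIs (control). The time from lung to droplet in each mouse is not given in the sources used here. Its part in the difference in ciliated cells cannot be told apart from that of the tumor.

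**Figure D5:**
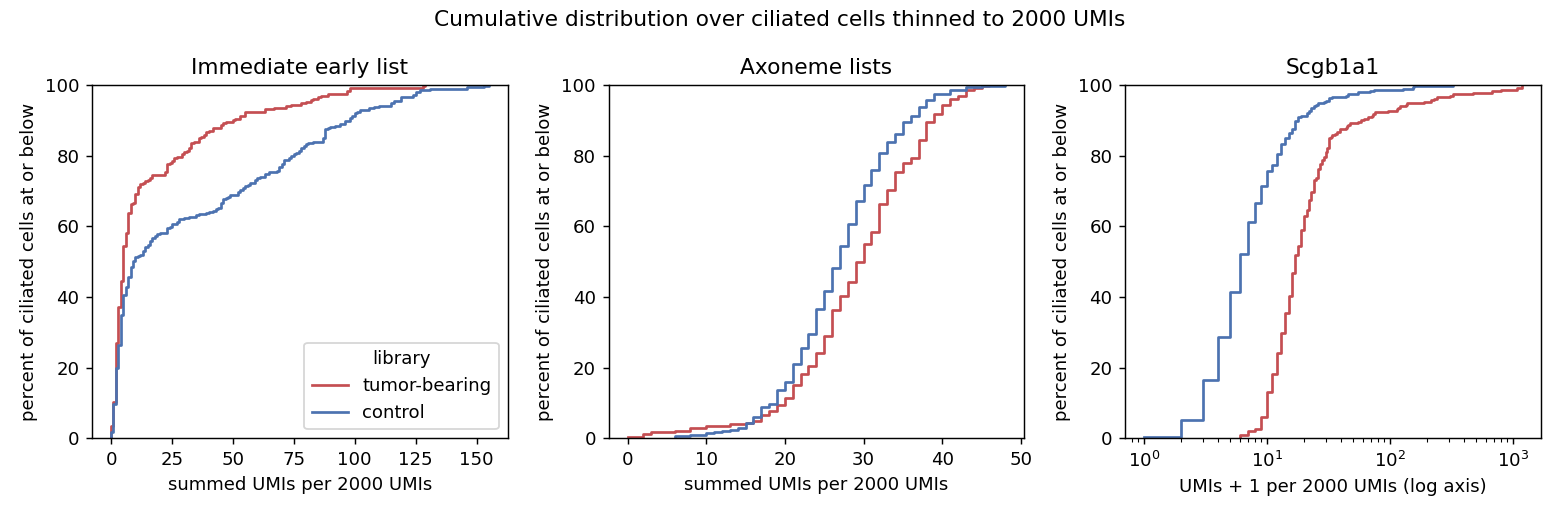
Percent of ciliated cells at or below each level (vertical axis) after thinning to 2000 UMIs, for the summed immediate early list (left), the summed axoneme lists (middle) and Scgb1a1 on a log axis of UMIs + 1 (right), with tumor-bearing in red and control in blue. At least 50 immediate early UMIs were found in 10.4% of tumor-bearing and 31.0% of control cells, while the axoneme medians were 30 (tumor-bearing) and 27 (control).

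Metallothioneins, small proteins that bind zinc and copper, were the only ciliary-enriched genes of the 419 past the size rule. Mt1 (chromosome 8, 94179082 to 94180327, mm10) stood at 1784 CPM in the tumor-bearing library (95% interval 1715 to 1855) and 4137 CPM in the control library (4028 to 4248). Its neighbour Mt2 stood at 351 CPM (tumor-bearing) and 1228 CPM (control). After thinning, Mt1 was found in 86.6% (tumor-bearing) and 93.4% (control) of ciliated cells, and in 16.8% (tumor-bearing) and 29.4% (control) of AT2 cells. Its median per thinned ciliated cell was 3 UMIs (tumor-bearing) and 6 UMIs (control). Over the list of metallothioneins and glucocorticoid targets, 4 of 10 members were lower by the size rule, against 1.63% of all genes counted, and the median was -0.43. Dusp1, past the rule as lower, is also on the immediate early list, so the counts of these lists overlap. Several known glucocorticoid targets were close to equal, such as Tsc22d3 at 99.8 CPM (tumor-bearing) and 96.0 CPM (control) and Per1 at 47.1 CPM (tumor-bearing) and 44.6 CPM (control).

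Other genes named by the rule or a list were also lower in the tumor-bearing library. Osgin1, an oxidative stress gene, stood at 15.7 CPM (tumor-bearing) and 78.6 CPM (control). Hes1, a Notch target, stood at 617 CPM (tumor-bearing) and 1258 CPM (control). Gadd45g, a growth arrest gene, stood at 37.1 CPM (tumor-bearing) and 105 CPM (control), and Maff, a small Maf factor, at 44.2 CPM (tumor-bearing) and 145 CPM (control). Irf1, an interferon regulatory factor, stood at 42.1 CPM (tumor-bearing) and 113 CPM (control). Also lower were 8430408G22Rik, at 39.2 CPM (tumor-bearing) and 122 CPM (control), and Rasd1, at 12.1 CPM (tumor-bearing) and 54.4 CPM (control).

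Dcn and Bpifa1 were past the rule through single control cells. Dcn, a fibroblast matrix gene, had 0 UMIs (tumor-bearing) and 82 (control), of which 81 were in 1 cell. Bpifa1, a secreted airway defence protein, stood at 34.9 CPM (tumor-bearing) and 216 CPM (control). Of its 286 control UMIs, 277 were in 1 cell, which also met the club rule. Without the cell with most UMIs in each library the log2 ratio of Bpifa1 was 2.18, so its direction turned.

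Genes of MHC class II, which present antigen, were lower in the tumor-bearing library in all 6 members that reached 20 CPM, 3 of them past the size rule. Of all genes 57.5% were below 0, and 1.63% of those counted were past the rule as lower. The list median was -1.0, against -0.11 in AT2 cells. Cd74, the invariant chain, stood at 342 CPM in ciliated cells (tumor-bearing) and 750 CPM (control). In AT2 cells, which make it in quantity, it stood at 6478 CPM (tumor-bearing) and 6921 CPM (control). Cd74 in ciliated cells was 8.0% (tumor-bearing) and 13.3% (control) of its level in empty droplets. With no Sftpc limit on the cells the list median was -0.36. The part of free RNA in this list was not tested.

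Of the 14 genes higher in the tumor-bearing library, 11 were left without those that did not reach 0.5 times the empty droplet level of that library. The most abundant was Scgb1a1 (chromosome 19, 9083636 to 9087958, mm10), the main secreted protein of club cells. It stood at 63096 CPM in ciliated cells (tumor-bearing) and 5458 CPM (control), a ratio of 11.6 (95% interval 11.3 to 11.8). In empty droplets it stood at 114315 CPM (tumor-bearing) and 14043 CPM (control). A single tumor-bearing ciliated cell, which also met the club rule, held 19145 of the 88497 UMIs. In thinned ciliated cells the median was 16 UMIs (tumor-bearing) and 5 UMIs (control). The log2 ratio was 3.53, 2.25 in thinned cells, and 1.46 without the 5% of ciliated cells with most UMIs. In AT2 cells the ratio was 2.58.

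The number of club cells moved with this gene. The summed level of the other club markers was close in the libraries, but Cbr2 made up most of that sum. Of the 7 club markers that reached 20 CPM, Scgb1a1 among them, 6 had log2 ratios above 0 and 1 below, with a median of 0.57. The club class held 216 cells (tumor-bearing) and 56 (control). All 10 club markers were detected, and the 9 other than Scgb1a1 summed to 20585 CPM in ciliated cells (tumor-bearing) and 20331 CPM (control), and to 10878 CPM (tumor-bearing) and 9504 CPM (control) in empty droplets. Of ciliated cells, 12 tumor-bearing cells (5.19%) and 5 control cells (1.74%) also met the club rule. The part of these cells and of free RNA in the level of Scgb1a1 was not tested. Scgb3a2, another secretoglobin, stood at 358 CPM (tumor-bearing) and 78.6 CPM (control), below its level in empty droplets. The abundant club genes were closer to equal. Cyp2f2, a cytochrome P450, stood at 2553 CPM (tumor-bearing) and 1982 CPM (control), above its empty droplet level in both libraries. Cbr2, a carbonyl reductase, stood at 15870 CPM (tumor-bearing) and 16614 CPM (control).

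Gsta3 and Hp, which club cells also express, were closest to equal under alternatives that left out different cells for each gene. Gsta3, a glutathione transferase, stood at 74.9 CPM (tumor-bearing) and 24.2 CPM (control), with a log2 ratio of 1.59, or 0.28 without cells that also met the club or AT1 rule. Hp (haptoglobin, an acute phase protein) stood at 816 CPM (tumor-bearing) and 414 CPM (control), just under the size rule. Its log2 ratio was 0.98, or 0.11 without the 5% of cells with most UMIs, a setting chosen after seeing the data. Over all alternatives tried the log2 ratio lay between 0.28 and 1.79 for Gsta3 and between 0.11 and 1.08 for Hp. Reg3g, an antimicrobial lectin, had 84 UMIs in the tumor-bearing library, 55 of them in 1 cell, and stood at 59.9 CPM (tumor-bearing) and 1.51 CPM (control). Without that cell it stood at 20.8 CPM in the tumor-bearing library.

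Plvap and Gpihbp1, genes of capillary endothelial cells, were higher as well. Plvap stood at 72 CPM (tumor-bearing) and 11.3 CPM (control), and Gpihbp1 at 65.6 CPM (tumor-bearing) and 12.9 CPM (control). In AT2 cells the ratios were 6.15 and 8.87. The 7 endothelial markers were all detected and summed to 294 CPM in ciliated cells (tumor-bearing) and 129 CPM (control), and to 666 CPM (tumor-bearing) and 117 CPM (control) in empty droplets. Without the cells of highest doublet score the log2 ratios were 1.09 for Plvap and 0.80 for Gpihbp1. The part of endothelial RNA in these values was not tested.

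The other higher genes named by the rule were Ccnd2, Gcc2, Hspa1a, Gm26825, Ifitm1 and Cks2. Ccnd2, a D-type cyclin, stood at 287 CPM in the tumor-bearing library (95% interval 259 to 316) and 141 CPM in the control library (121 to 162), and was found in 48.5% of tumor-bearing cells and 28.6% of control cells. After thinning it was found in 32.0% (tumor-bearing) and 17.4% (control) of ciliated cells, and in 7.5% (tumor-bearing) and 6.8% (control) of AT2 cells. AT1 cells had the same direction, at 43.5% (tumor-bearing) and 30.6% (control), and club cells the other, at 9.72% (tumor-bearing) and 16.1% (control). Gcc2, a Golgi coiled-coil protein, stood at 89.8 CPM (tumor-bearing) and 40.8 CPM (control). Hspa1a, an inducible heat shock protein, stood at 203 CPM (tumor-bearing) and 95.3 CPM (control), with a ratio of 3.18 in AT2 cells. Gm26825 stood at 128 CPM (tumor-bearing) and 61.2 CPM (control). These 4 lie near the limit of the rule, with log2 ratios down to 0.95, 0.97, 0.84 and 0.77 under the alternatives tried. Ifitm1, an interferon-induced membrane protein, stood at 362 CPM (tumor-bearing) and 138 CPM (control), with a ratio of 2.62, and of 2.79 in AT2 cells. Cks2, a cyclin-dependent kinase subunit, stood at 52.0 CPM (tumor-bearing) and 19.7 CPM (control), with 31.5% of its tumor-bearing UMIs in the same cell that held most Ccno. Without that cell Cks2 stood at 36.2 CPM in the tumor-bearing library, and without the 5% of cells with most UMIs its log2 ratio was 0.38, so that it was no longer past the rule.

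Broader response lists had smaller medians, and their counts below 0 stand beside 57.5% of all genes below 0. The totals behind CPM include Scgb1a1, at 63096 CPM (tumor-bearing) and 5458 CPM (control). Its part in the share of genes below 0 was not tested. Interferon response genes had a median of 0.17 over 10 members and, apart from Ifitm1 and Irf1, 0 past the size rule. For example Ifitm3 stood at 613 CPM (tumor-bearing) and 476 CPM (control). MHC class I genes had a median of -0.32 with 8 of 10 members below 0, and B2m, the light chain, stood at 322 CPM (tumor-bearing) and 432 CPM (control). In AT2 cells the median of that list was -0.18. Heat shock genes had a median of -0.38 with 11 of 14 below 0, against 0.08 in AT2 cells. Within it Hspa8, a constitutive chaperone, stood at 876 CPM (tumor-bearing) and 1368 CPM (control), opposite in direction to Hspa1a.

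Energy metabolism differed little in ciliated cells, which spend much ATP on beating. The 66 nuclear genes of the respiratory chain had a median of -0.12, with 54 below 0, against 57.5% of all genes, and 0 past the size rule. The 12 mitochondrially encoded genes had a median of -0.11, and the 11 glycolysis genes had one of -0.13. Fatty acid oxidation had a median of 0.01 over 20 members, against 0.38 in AT2 cells, a difference that was not tested. Its member Cpt1a, the entry enzyme of mitochondrial fat oxidation, stood at 39.2 CPM (tumor-bearing) and 21.9 CPM (control). Cholesterol synthesis had a median of 0.22 with 10 of 11 members above 0, against 2627 of all 6176 genes, and 0 past the size rule. Fatty acid synthesis had a median of -0.22 and 2 members lower, Scd1 and Scd2, neither of which reached 0.5 times its control empty droplet level. Cytosolic ribosomal proteins, with 47 members, had a median of 0.04, and the proteasome, with 30 members, had one of -0.04.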

How the data were processed

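Lung epithelial cells of 1 tumor-bearing and 1 control mouse were read with 10x droplet sequencing. The counts deposited by the authors are raw UMIs of 28692 genes in 737280 barcodes per library, made with Cell Ranger 2.1.0 per the series design and build mm10 per the submitters' processing notes, which also name Seurat and R 3.5.3. Strand use in counting, and any calling of cells or removal of doublets, are not given in the sources used here.

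Cells, the ciliated class and the club, AT1 and AT2 classes were rebuilt from the counts, and the submitters' own classes may differ. The members, gene lists and rules were chosen with earlier results of these data known. Coordinates are those of GENCODE vM21, which held 28339 of the gene identifiers (98.8%), and symbols missing from the files under an older or newer name were left unmatched. UMIs were summed per class and library. Intervals are exact at 95% (Poisson, Clopper-Pearson, and conditional binomial for ratios), and cover counting error only. For thinned AT2 values, 1000 cells per library were drawn. Scrublet in scanpy 1.11.5 marked 0 cells (tumor-bearing) and 0 cells (control) at its automatic threshold, so no doublets were removed. As an alternative its 533 (tumor-bearing) and 966 (control) highest-scoring cells were left out, among them 14 (tumor-bearing) and 7 (control) ciliated cells. The size rule and the intervals were run on simulated summed counts drawn from Poisson distributions. These hold no variation between cells or mice, so they cannot show how the rule or the intervals behave under it. Python 3.11.15, numpy 2.4.6, scipy 1.17.1, pandas 2.3.3 and matplotlib 3.10.9 were used.

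Genes named are the 7 rule genes, the 15 with the highest ratio to all other cells, up to 12 per direction past the size rule without those that did not reach 0.5 times the empty droplet level of the higher library, up to 4 per list, paralogue lists and the 10 most variable. Other genes were named after their values were seen. Of the genes that the rule names, 1 is not reported here.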

Additional observations from a re-analysis of the deposited data

Results flagged for a closer look

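Barcodes under the minimum of 2000 UMIs also held ciliated profiles, which the comparisons leave out, apart from the alternative with a minimum of 1000 UMIs. Of those with at least 500 and under 2000 UMIs, 31 of 1304 (2.38%, Clopper-Pearson 1.62 to 3.36) met the gene and Sftpc rule in the tumor-bearing library and 45 of 2502 (1.80%, 1.31 to 2.40) in the control library. A count of 0 would have allowed up to 0.230% (tumor-bearing) and 0.120% (control). Their median mitochondrial share was 11.1% (tumor-bearing) and 11.6% (control).

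The immediate early list had opposite signs in ciliated and AT2 cells, with a median log2 ratio of -1.03 in ciliated cells and 0.23 in AT2 cells. Club cells had the direction of ciliated cells, with medians of 4 UMIs (tumor-bearing) and 7 UMIs (control) per thinned cell. The larger share of Scgb1a1 in tumor-bearing club cells leaves less room for other genes there, and its part was not tested. AT1 cells had the other direction, with medians of 15 UMIs (tumor-bearing) and 11 UMIs (control). The difference between the classes was not tested.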

How the results depend on the processing

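With no Sftpc limit the share of ciliated cells was 3.31% (tumor-bearing) and 3.31% (control), and with at least 4000 UMIs it was 2.42% (tumor-bearing) and 1.72% (control). Genes past the size rule numbered 14 higher and 52 lower. With no Sftpc limit 25 were lower. With libraries scaled by the median of gene ratios and not by UMI totals, the median log2 ratio over all genes rose by 0.051. Under that scaling 17 were higher and 42 lower. At 20 CPM there were 49 higher and 83 lower, at 100 CPM 6 and 34, with no minimum beyond 3 UMIs 82 and 107, and at 1.5-fold 47 and 127. Bpifa1, with a log2 ratio of -2.60 in all ciliated cells, turned direction, at 2.25 without the highest doublet scores, 2.10 without cells that met the club or AT1 rule, and 2.18 without its top cell. Ly6c1 and Cldn5, at 1.22 and 1.19 in all ciliated cells, stood at -0.019 and -0.98 without the highest doublet scores. The p53 list, at -0.25, stood at 0.087 in thinned cells. The cause of these was not tested, beyond the fewer or more genes that a changed minimum admits. The settings that leave out the top cell or the 5% of cells with most UMIs were chosen after seeing the data. No paired analysis was possible because each group had 1 library. Few UMIs stand behind genes with low CPM, which limits their precision.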

Other observations

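In AT1 cells the share with at least 50 immediate early UMIs after thinning had the other direction from that in ciliated cells. It was 18 of 232 cells (7.76%, Clopper-Pearson 4.66 to 12) in the tumor-bearing library and 3 of 310 (0.968%, 0.20 to 2.80) in the control library. The difference between the classes was not tested.

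A single ciliated cell of the tumor-bearing library held 27 of 29 UMIs of Calca and 26 of 27 of Resp18, genes of neuroendocrine cells. It had 11899 UMIs and all 7 rule genes.

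Cholesterol synthesis and fatty acid synthesis differed in direction within ciliated cells, with medians of 0.22 and -0.22. Both lists summed to less in ciliated cells than in empty droplets. Fatty acid synthesis stood at 530 against 1778 CPM (tumor-bearing) and 773 against 2355 CPM (control). Cholesterol synthesis stood at 567 against 784 CPM (tumor-bearing) and 468 against 924 CPM (control). The part of free RNA in these values was not tested. Fasn, the fatty acid synthase, stood at 15 CPM (tumor-bearing) and 45.4 CPM (control).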
